A study of Saccharomyces cerevisiae with 12 samples.

Results

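The untreated culture of Saccharomyces cerevisiae BY4741 is described here through its 3 samples, out of 12 in the whole series. These samples were chosen by their labels: they were grown without PeAfpA, the antifungal protein of Penicillium expansum, and are condition 1 of the study. BY4741 is a haploid laboratory strain of mating type a that carries deletions in HIS3, LEU2, MET17 and URA3, and all 12 samples share this background. Each control flask held 10 mL of YPD diluted to 5% and was shaken at 120 rpm and 30 °C for 20 h. Samples from 3 further conditions were grown in the same way with 1, 2 or 4 µg/mL PeAfpA, with 3 samples each. Only the condition with 4 µg/mL (condition 4) is compared with the controls by a test below. The labels name the material mycelia, whereas the methods describe yeast cells collected by centrifugation.

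Yeast in a glucose medium ferments the sugar to ethanol first and represses the genes for respiration and for other carbon sources. When glucose runs out, the cells turn to the ethanol and acetate they have released, which needs the glyoxylate cycle, gluconeogenesis and respiration. Cells that stop dividing keep transcripts of stress and stationary phase proteins. Many of the enzymes concerned are encoded by paralogues, related gene copies of which some are used on glucose and others on ethanol or in stress, so that the dominant copy describes the state of a culture.

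The control libraries held 8991943, 8696214 and 8736835 counts, and no control library stood apart in its total. Levels are given in TPM, the counts per base of coding sequence scaled to the same total in each library, and shares of counts are given where length matters. In bulk RNA a lower level cannot be told apart as fewer cells with the transcript or as less transcript per cell. Differences between control libraries were 30.7 to 42.7 times the variance of counting error, and the correlation of log2 TPM across genes was 0.9861 to 0.9899 (genes are not independent replicates). The median coefficient of variation over the 3 samples was 10.4% among the 1814 genes at 100 TPM or more. LEU2, URA3 and MET17 had 0 counts in each control library, which allows at most 0.39 TPM at 3 counts, and HIS3, which BY4741 keeps in part, had 453, 591 and 528 counts. The 7 genes specific to a cells summed to 3013 to 3732 TPM in the controls and the 4 specific to alpha cells to 72.1 to 119.4 TPM. MFA2, a pheromone gene of a cells, had 1747, 1500 and 1961 TPM, while STE3, the receptor made by alpha cells for that pheromone, had a mean of 9.02 TPM. Counts of the 8 mitochondrially encoded genes were close to 0, at most 0.000253% of TPM.

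Regulatory sequences of 4 genes are shown first: HSP12 and SIP18 had the highest mean levels, and ICL1 and ADH2 belong to the genes of growth on ethanol described below. General stress genes were 11 of the 100 highest and ethanol and acetate genes 7, and both groups have a well known promoter element. The windows are the 300 bases that end 100 bases before the start codon, on the coding strand, read from the RefSeq sequence of the S288C R64 genome. Capitals mark the stress response element AGGGG, the site of Msn2 and Msn4, on either strand in HSP12 (chrVI:106856-107155, plus strand) and SIP18 (chrXIII:610616-610915, plus strand).
HSP12: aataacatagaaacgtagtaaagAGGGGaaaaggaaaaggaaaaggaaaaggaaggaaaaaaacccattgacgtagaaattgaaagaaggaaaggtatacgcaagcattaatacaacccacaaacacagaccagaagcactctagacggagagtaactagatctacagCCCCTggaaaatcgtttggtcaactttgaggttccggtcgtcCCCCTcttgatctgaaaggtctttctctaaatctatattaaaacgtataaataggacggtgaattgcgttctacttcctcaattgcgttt
SIP18: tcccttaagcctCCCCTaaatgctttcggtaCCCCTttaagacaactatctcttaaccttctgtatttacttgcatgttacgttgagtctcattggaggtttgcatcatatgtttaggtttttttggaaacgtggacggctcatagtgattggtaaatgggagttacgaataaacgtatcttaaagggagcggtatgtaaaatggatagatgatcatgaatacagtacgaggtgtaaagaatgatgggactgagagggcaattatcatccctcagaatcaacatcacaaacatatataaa
Capitals mark the core of the carbon source-responsive element, CC and CCG with any 6 bases between them, the site of Cat8 and Sip4, on either strand in ICL1 (chrV:287015-287314, minus strand) and ADH2 (chrXIII:874438-874737, minus strand). The capitals in ADH2 hold a pair of overlapping matches on opposite strands.
ICL1: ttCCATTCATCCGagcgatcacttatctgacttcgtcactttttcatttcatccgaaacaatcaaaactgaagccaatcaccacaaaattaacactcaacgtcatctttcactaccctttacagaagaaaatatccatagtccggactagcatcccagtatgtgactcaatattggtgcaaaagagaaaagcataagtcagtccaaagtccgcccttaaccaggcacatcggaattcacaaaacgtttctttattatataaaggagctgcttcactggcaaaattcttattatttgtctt
ADH2: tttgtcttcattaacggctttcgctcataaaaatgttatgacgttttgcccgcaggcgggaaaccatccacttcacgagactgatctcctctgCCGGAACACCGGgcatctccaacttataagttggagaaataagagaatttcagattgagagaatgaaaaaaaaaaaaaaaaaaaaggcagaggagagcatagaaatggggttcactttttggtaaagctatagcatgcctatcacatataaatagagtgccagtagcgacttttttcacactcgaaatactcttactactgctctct

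HSP12 held 3 matches of AGGGG and SIP18 held 2. Over all 5897 genes with such a window, 23.9% held at least 1 match of AGGGG and 14.7% held a carbon source element core, both strands counted. Among 52 general stress and stationary phase genes, AGGGG occurred in 65.4% of windows, against 53.3% of 30 glycolysis and fermentation genes, 39.0% of 41 heat shock protein and chaperone genes and 19.0% of the 137 cytosolic ribosomal protein genes. Among 23 genes of ethanol and acetate entry, the glyoxylate cycle and gluconeogenesis, the carbon source element core occurred in 34.8% and AGGGG in 47.8% of windows. ADH1 and ACS2 had no carbon source element core, while their paralogues ADH2 and ACS1 had 2 each. Windows of FBP1 and MLS1 held none either, and GRE1 held no AGGGG. The core was also found in 29.9% of the ribosomal protein windows. A match is a description of the letters and not evidence of binding.

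A few small stress proteins held the highest levels. The 10 highest genes of each library took 10.0% ± 1.11 of TPM (SD, n = 3), the 100 highest took 30.9% ± 2.08, and 295 ± 30.1 genes were enough to reach 50%. By share of counts, without length, the 10 highest took 6.25% ± 0.746 and 541 ± 65.0 genes reached 50%. Of 5917 genes matched to the reference, 5245 had a mean of at least 10 TPM, 183 of at least 1000 TPM and 4 of over 10000 TPM.

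SIP18, which encodes a hydrophilin of desiccation tolerance, had 21162, 23821 and 15191 TPM. HSP12, a small membrane-stabilizing heat shock protein, had 19996, 22261 and 16308 TPM. SIP18 was the higher of these in replicates 1 and 2 and the lower in replicate 3, so their order is not settled by these samples. With the length extended by 74 bases, HSP12 led with a mean of 18170 TPM against 17470 TPM for SIP18. GRE1, another hydrophilin, had 12937, 11819 and 8702 TPM, and SPO24 had 13009, 10040 and 9785 TPM. The ranges of GRE1 and SPO24 overlapped, and both stayed below the lowest value of SIP18 and HSP12. Next came TDH3, the main glyceraldehyde-3-phosphate dehydrogenase, with 8754, 11089 and 8178 TPM.

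**Figure D1:**
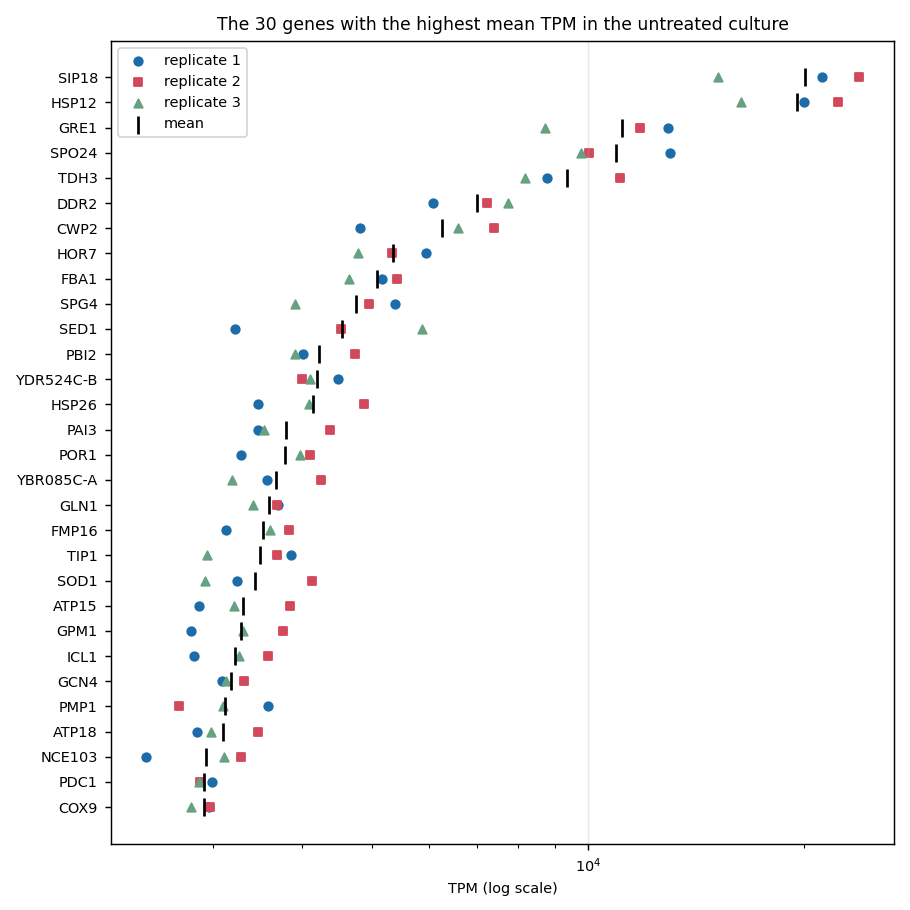
TPM on a log axis of the 30 genes with the highest mean in the untreated culture, with 1 symbol for each of the 3 samples and a bar at the mean. SIP18 and HSP12 lie highest, at 15191 TPM or more in every sample, and the lowest mean shown is 2915 TPM.

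Of the 30 highest genes, 22 belonged to 1 of the 23 functional classes listed for this description and 14 had a coding sequence under 300 bases. General stress genes among them were DDR2 (7014 TPM ± 847, SD, n = 3), HOR7 (5358 ± 579), SPG4 (4745 ± 761), SED1 (4541 ± 1324) and PAI3 (3791 ± 499). SED1 is the major wall protein of stationary cells, and PAI3 is the inhibitor of the vacuolar protease A. PBI2, an inhibitor of the vacuolar protease B without a class in the list, had a mean of 4216 TPM ± 455. The cell wall mannoproteins CWP2 and TIP1 had 6267 ± 1324 and 3496 ± 483. The small heat shock protein gene HSP26 had 4144 ± 702 and SOD1, the copper-zinc superoxide dismutase, had 3433 ± 620.

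Genes of central metabolism stood beside them. FBA1, the aldolase, had 5163, 5427 and 4641 TPM and GPM1, the phosphoglycerate mutase, had 2801, 3766 and 3308 TPM. PDC1, the pyruvate decarboxylase of fermentation, varied least of these, with 2992, 2885 and 2870 TPM. ICL1, the isocitrate lyase of the glyoxylate cycle, reached 2822, 3588 and 3262 TPM. GLN1, the glutamine synthetase, had 3600 TPM ± 164, and GCN4, the transcriptional activator of amino acid synthesis, had 3180 ± 123. Mitochondrial proteins included the porin POR1 (3786 ± 442) and the ATP synthase and oxidase subunits ATP15 (3310 ± 495), ATP18 (3103 ± 327) and COX9 (2915 ± 96.6). PMP1, a small regulator of the plasma membrane proton pump, had 3126 ± 446, and NCE103, the carbonic anhydrase, had 2941 ± 455. YDR524C-B (4197 ± 260), YBR085C-A (3673 ± 536) and FMP16 (3525 ± 357) are small genes without a class. DPA10 (2596 ± 684) and MRA1 (2479 ± 302) completed the 10 highest genes without one.

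Ranked by share of counts, where long genes weigh more, the order was TDH3 (10535 CPM, counts scaled to the library total), HSP12 (7269), GRE1 (6373), FBA1 (6176), ICL1 (6082), PDC1 (5548), SIP18 (5438), SED1 (5188), PCK1 (4860) and GLN1 (4510). PCK1 encodes the phosphoenolpyruvate carboxykinase that commits carbon to gluconeogenesis. It had 3347, 2339 and 2180 TPM, with replicate 1 above the others. Members of the class of glycolysis and fermentation (TDH3, FBA1 and PDC1) and of the ethanol and acetate class (ICL1 and PCK1) were thus both among the 10 highest on this scale.

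By class, cytosolic ribosomal proteins held the largest share of TPM among the 23 classes, 12.1%, 10.7% and 11.5% in the 3 samples for 137 genes. By share of counts they held 5.46% ± 0.237, and 135 of the 137 were at 100 TPM or more. The short genes RPL41B (2673 TPM ± 303), RPL41A (2471 ± 281) and RPL39 (2118 ± 207) were the highest. RPL41A (chrIV:130407-130484, minus strand) and RPL41B (chrIV:221724-221801, minus strand) are shown because 1 base, in capitals, tells their coding sequences apart.
RPL41A: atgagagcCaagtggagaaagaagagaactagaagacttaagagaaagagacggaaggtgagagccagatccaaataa
RPL41B: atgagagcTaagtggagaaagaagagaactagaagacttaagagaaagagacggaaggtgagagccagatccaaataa
Their TPM values rest on coding sequences of 78 bases against reads of up to 75 bases. Ribosome biogenesis factors, which are needed to build new ribosomes, held 1.06% ± 0.180 in 80 genes, with none among the 100 highest genes. NSR1, a nucleolar protein of rRNA processing and the second of this class, varied from 406 to 973 TPM. Translation elongation factors held 0.730% ± 0.0073, led as counted by HYP2 at 2025 TPM ± 171, and initiation factors held 0.575% ± 0.0446. Stretches of 75 bases found nowhere else in the genome made up 11.3% of TEF1 and TEF2 and 12.2% of EFT1 and EFT2, against 100% of HYP2. The TEF and EFT genes may have lost shared reads, so the elongation share may be too low and the lead of HYP2 is not secure.

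General stress and stationary phase genes other than chaperones came next with 7.89% ± 0.733 of TPM in 52 genes (4.45% ± 0.388 of counts). Heat shock proteins and chaperones held 4.32% ± 0.393 in 41 genes, of which HSP12 alone held 1.95% of all TPM and the cyclophilin CPR1 0.211%. Oxidative stress defence held 1.75% ± 0.231, led by SOD1, the peroxiredoxin AHP1 (2257 TPM ± 381) and the mitochondrial superoxide dismutase SOD2 (1818 ± 257). Trehalose and glycogen genes held only 0.206% ± 0.0429, although these carbohydrates are known stores of resting cells. Their highest member TPS1, the trehalose-6-phosphate synthase, had 213, 318 and 367 TPM.

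Respiration took a larger share than glycolysis per transcript. The respiratory chain and ATP synthase held 6.39% ± 0.239 in 45 genes, 18 of which were among the 100 highest, and glycolysis and fermentation held 3.54% ± 0.336 in 30 genes. Shares of counts had the other order, with 3.68% ± 0.219 for the respiratory chain and 4.57% ± 0.539 for glycolysis. The tricarboxylic acid cycle held 1.85% ± 0.0729, led by the succinate dehydrogenase subunits SDH3 (2039 TPM ± 212), SDH2 (2013 ± 102) and SDH4 (1836 ± 112). Genes of ethanol and acetate entry, the glyoxylate cycle and gluconeogenesis held 2.53% ± 0.239 of TPM and 4.04% ± 0.466 of counts in 23 genes. Fatty acid oxidation and the carnitine shuttle held 0.469% ± 0.0622, led by the carnitine acetyltransferases YAT1 (732 TPM ± 199) and YAT2 (678 ± 124). The class of hexose transporters, where HXT6 and HXT7 may have lost shared reads, held 0.174% ± 0.0307 in 20 genes. Of these, 3 reached 100 TPM: HXT5, HXT6 and STL1. The last of these, at 239 TPM and 0.0239% of TPM, is listed in this class, although the paper names it for glycerol transport.

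**Figure D2:**
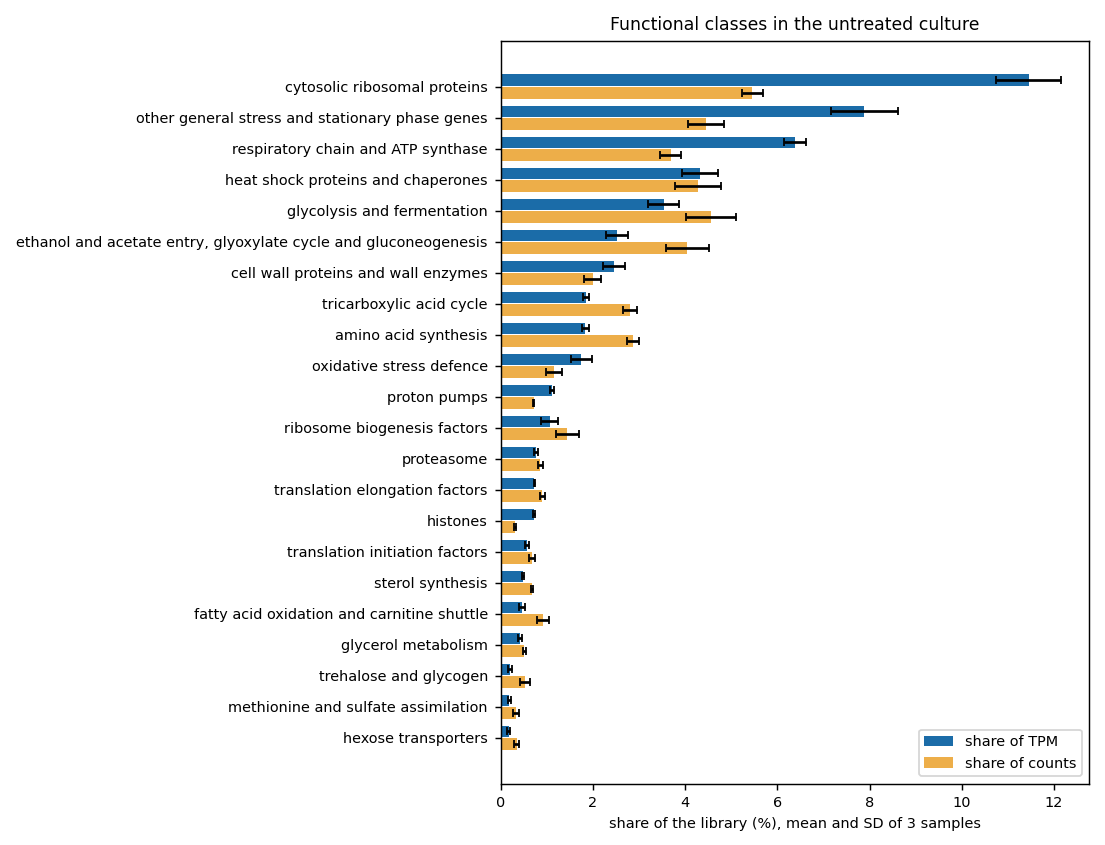
Share of each functional class in the untreated culture as a percentage of TPM and of counts, with bars for the mean and lines for the SD of 3 samples. Cytosolic ribosomal proteins are the longest bar on the TPM scale at 11.5% and fall to 5.46% on the count scale, where classes of longer genes such as glycolysis gain. Genes without a class and the mitochondrially encoded genes are not drawn.

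Of the remaining classes, cell wall proteins held 2.46% ± 0.240, amino acid synthesis 1.84% ± 0.0830, proton pumps 1.11% ± 0.0385, the proteasome 0.769% ± 0.0438 and histones 0.725% ± 0.0306. Within the proton pump class, PMP1, a regulator of the pump, held 0.313% of TPM. PMP3, the next member, held 0.240% (2397 TPM ± 132), so much of the class share came from these small genes. Sterol synthesis held 0.492% ± 0.0216, glycerol metabolism 0.421% ± 0.0521 and methionine and sulfate assimilation 0.190% ± 0.0362. Of the 5917 matched genes, 5120 had no class, and together they held 49.1% ± 1.30 of TPM.

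Paralogue pairs were compared within the control samples by the log2 ratio of their counts per base, tested with limma against a ratio of 0 and adjusted over 462 pairs by the Benjamini-Hochberg method. The members of 375 pairs (81.2%) differed at an adjusted p under 0.05, and in 246 pairs (53.2%) the higher member also led by at least 2-fold. The lead was at least 10-fold in 72 pairs and at least 100-fold in 11. Cytosolic ribosomal protein pairs were closer to each other, with a median log2 ratio of 0.639 in 58 pairs and 14 pairs past 2-fold (24.1%). The 404 other pairs had a median of 1.27 (57.4% past 2-fold). Pairs over 95% base identity, ribosomal or not, had a median of 0.685 in 48 pairs (31.2% past 2-fold). How reads shared by similar copies were counted is not known, and the part of sequence similarity in this contrast was not tested. The copy named A was the higher in 35 of the 58 ribosomal pairs. Among the more unequal ribosomal pairs, RPS14A led RPS14B by a log2 ratio of 2.50 ± 0.103 (SE, n = 3, limma adjusted p = 4.07e-05).

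Among pairs whose higher member was 1 of the 500 highest genes, the most unequal was PET9 over AAC3. These encode the main and the anaerobic ADP/ATP carrier, at 1680 and 0.695 TPM with a log2 ratio of 11.18 ± 0.251 (SE, n = 3, limma adjusted p = 1.49e-05). HYP2, the eIF5A gene used with oxygen, stood at 1828, 2146 and 2100 TPM against 10.4, 5.81 and 8.37 TPM for ANB1, its copy of low oxygen. COX5A likewise stood at 1968, 1848 and 1720 TPM against 90.1, 92.2 and 104 TPM for the hypoxic COX5B. CYC1 stood at 951, 1159 and 1064 TPM against 115, 144 and 204 TPM for CYC7, the second cytochrome c gene. In each of these 3 pairs, the copy of aerobic growth was the higher in every sample. PDC1 led PDC5 by a log2 ratio of 7.80 ± 0.118, FCY2 led the other permease FCY22 by 7.37 ± 0.39 and NCE102, a protein of eisosomes, led FHN1 by 7.23 ± 0.230. POR1 led POR2 by 6.51 ± 0.174, CDC19 led PYK2 by 5.93 ± 0.10 and EGD1 led BTT1, both beta subunits of the nascent polypeptide-associated complex, by 5.65 ± 0.200. The thiamine transporter THI7 led THI72 by 5.42 ± 0.128 and actin, ACT1, led the related ARP1 by 5.26 ± 0.103, each with a limma adjusted p of at most 8.7e-05.

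Among the transcripts of sugar uptake, 1 copy held most of the TPM as counted. HXT5, a transporter of slow or halted growth, had 1446, 1083 and 1044 TPM and held 84.6% of the TPM of the 16 HXT genes. HXT1, the low-affinity transporter of high glucose, had 0.99, 0.34 and 1.34 TPM, and HXT3, the other one, had 14.2 to 15.02 TPM. HXT2, a high-affinity transporter, had 40.5 TPM in replicate 1 and 6.84 and 9.12 TPM in the others. HXT6 and HXT7, of high affinity, had 121, 113 and 68.4 TPM and 91.3, 45.5 and 35.6 TPM. How reads shared by these copies were counted is not known, so both levels may be too low and the share of HXT5 too high. Only 5% of the 75-base stretches of each occur nowhere else in the genome, so their split is uncertain. An example is the stretch from base 1602 to 1676 of HXT6 (chrIV:1159608-1161320) and HXT7 (chrIV:1154216-1155928), both on the minus strand. The capitals mark the bases that differ, 2 of the 3 differences in 1713 bases.
HXT6: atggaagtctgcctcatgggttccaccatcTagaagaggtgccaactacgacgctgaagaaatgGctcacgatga
HXT7: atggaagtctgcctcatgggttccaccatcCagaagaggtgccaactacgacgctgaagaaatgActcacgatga
HXT5 led HXT6 by a log2 ratio of 3.59 ± 0.234 (SE, limma adjusted p = 4.91e-05 over 237 pairs within the listed families), with full coding lengths. Of the 75-base stretches, 97.4% are unique in HXT5 and 5% in HXT6, which this p-value does not cover. The lead was not tested with uniquely mappable lengths and is not secure. Among the hexose kinases, GLK1, the glucokinase, which overlaps the annotated gene YCL042W, had 589, 703 and 619 TPM, above HXK2, the hexokinase of glucose growth, with 328, 221 and 248 TPM. HXK2 and HXK1 did not differ at the threshold (log2 ratio 0.146, 95% interval -0.428 to 0.721).

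Within glycolysis a single copy usually led. TDH3 held 88.8% of the TPM of its family, over TDH2 (732, 752 and 809 TPM) and TDH1 (338, 376 and 451 TPM), with a log2 ratio to TDH2 of 3.60 ± 0.137 (SE, n = 3, limma adjusted p = 3.42e-05). CDC19, the main pyruvate kinase, had 1727, 1899 and 1725 TPM against 28.3, 28.4 and 30.6 TPM for PYK2, a copy of slow glycolytic flux. Enolases were nearer to each other, with 1291, 1614 and 1400 TPM for ENO1 and 927, 1051 and 1169 TPM for ENO2. Their log2 ratio was 0.452 ± 0.112 (limma adjusted p = 0.0161) and missed the threshold without replicate 1 (0.439) or without replicate 2 (0.369). Tested over the 237 family pairs, it missed the threshold with all samples (95% interval -0.086 to 0.99, limma adjusted p = 0.0934).

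Around ethanol and acetate, the leading copy differed in kind between families. ADH2, which oxidizes ethanol, had 2566, 3036 and 1664 TPM and ADH1, which forms it, had 1003, 1339 and 1317 TPM. ADH2 was the higher in all 3 samples, with a lead that was smallest in replicate 3. The log2 ratio was 0.957 ± 0.226 (limma adjusted p = 0.0137), and it missed the threshold without replicate 1 (0.759). The start of ADH1 (bases 1 to 75, chrXV:159548-160594, minus strand) and ADH2 (chrXIII:873291-874337, minus strand) is shown because reads separate these copies well: capitals mark the 11 differing bases, out of 117 in 1047.
ADH1: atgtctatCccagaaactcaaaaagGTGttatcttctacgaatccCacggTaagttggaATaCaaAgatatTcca
ADH2: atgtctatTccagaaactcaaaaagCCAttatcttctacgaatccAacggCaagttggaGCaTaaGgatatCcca
ACS1, the acetyl-CoA synthetase repressed by glucose, had 824, 1165 and 953 TPM against 392, 419 and 401 TPM for ACS2. Malate synthase MLS1 had 2236, 2715 and 2173 TPM, and DAL7, its copy for allantoin use, stayed at 66.7 to 74.9 TPM. ALD6 held 59.1% of the TPM of the aldehyde dehydrogenases, at 1479, 1344 and 1339 TPM, above the glucose-repressed ALD4 at 749, 804 and 776 TPM (log2 ratio 0.837 ± 0.205 SE, limma adjusted p = 0.0114 over the 237 family pairs).

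Citrate synthase came from copies that did not differ at the threshold. CIT2, the peroxisomal enzyme of the glyoxylate cycle, had 1872, 1715 and 1537 TPM and CIT1, the mitochondrial one, had 1615, 1766 and 1607 TPM. Their log2 ratio was 0.035 with a 95% interval from -0.246 to 0.317. Malate dehydrogenase MDH2, the cytosolic enzyme of gluconeogenesis, had 2017, 2281 and 2367 TPM, above the mitochondrial MDH1 in each sample (1669, 1763 and 1896 TPM). The interval of that ratio, from the 237 family pairs, still held 0 (log2 ratio 0.322, -0.192 to 0.835). IDP2, the cytosolic NADP isocitrate dehydrogenase, held 78.8% of its family, with 1415, 1352 and 837 TPM.

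**Figure D3:**
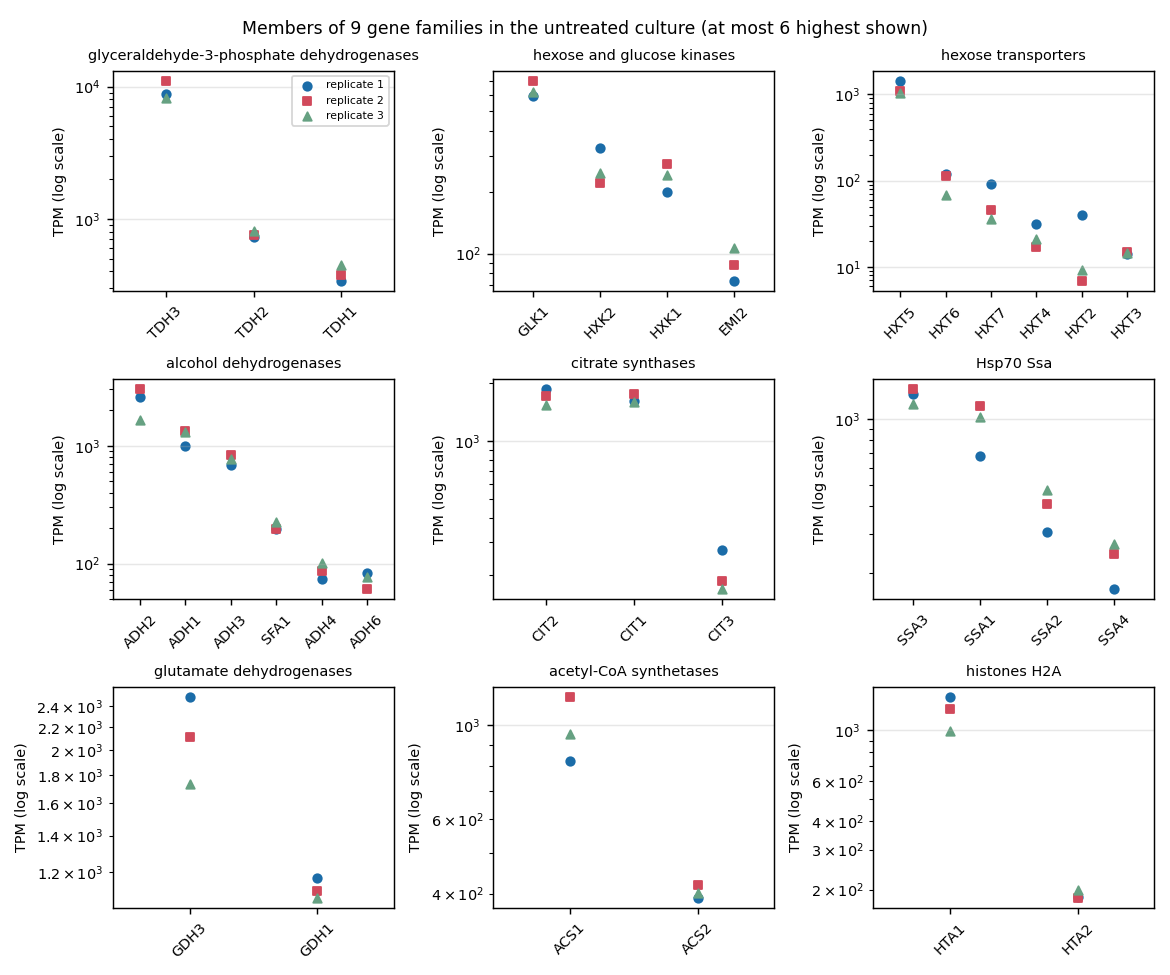
TPM on log axes of the members of 9 gene families in the 3 untreated samples, with at most the 6 highest members of each. HXT5, TDH3, GLK1, ADH2, SSA3, GDH3, ACS1 and HTA1 have the highest mean in their panels, and CIT2 and CIT1 overlap between 1537 and 1872 TPM. HXT6, HXT7 and SSA1 share much of their sequence with other genes and may be drawn too low.

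Families of stress and of non-fermentable carbon were compared next. SSA3, a stress-induced Hsp70, had 1298, 1367 and 1167 TPM and SSA1, 48.1% of whose 75-base stretches are unique, had 679, 1147 and 1014 TPM. Their log2 ratio of 0.464, tested over the 237 family pairs, had an interval of -0.172 to 1.1, whereas SSA3 led SSA4, another stress-induced copy, by 2.52 ± 0.183 (limma adjusted p = 0.00022). The Hsp90 copies HSC82 (1076, 1248 and 1375 TPM) and HSP82 (822, 1088 and 1254 TPM) had a ratio of 0.240 with an interval of -0.0300 to 0.509. In the pentose phosphate pathway, GND2 led GND1 by 2.10 ± 0.110 and NQM1 led TAL1 by 1.12 ± 0.0890, the higher member in both being the copy tied to stress or non-fermentable carbon. RGI2, a regulator of respiratory growth, had 738, 873 and 333 TPM against 56.3, 128 and 84.3 TPM for RGI1. GDH3, the glutamate dehydrogenase copy of growth on ethanol, had 2494, 2110 and 1733 TPM against 1172, 1110 and 1081 TPM for GDH1.

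Copies tied to growth and division were mixed. PMA1, the proton pump of the plasma membrane, had 640, 500 and 520 TPM and led PMA2 by 2.47 ± 0.0950. The G1 cyclin CLN3 had 132, 84.1 and 127 TPM, above CLN1 (30.6, 27.2 and 31.1 TPM) and CLN2 (22.9, 17.5 and 17.4 TPM). Histone H2A and H2B transcripts came mostly from HTA1 (86.2%) and HTB1 (90.8%), while the H3 genes HHT1 and HHT2 did not differ at the threshold, with a log2 ratio of 0.016 and an interval of -0.288 to 0.320. TEF1 and TEF2, with means of 502 and 471 TPM, share all but 11.3% of their 75-base stretches and could not be separated well.

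Condition 4 was set beside the control to show where the untreated state differed from the one with the most PeAfpA. In edgeR's quasi-likelihood test over 5903 genes, 1140 (19.3%) were higher and 1357 (23.0%) lower with 4 µg/mL at an adjusted p under 0.05, with a median log2 fold change over the tested genes of -0.04. The split depended on the scaling, with 756 higher and 1571 lower by library size alone, 1242 and 1241 with RLE size factors and 1363 and 1343 with DESeq2. Of the 23 genes of ethanol and acetate entry, the glyoxylate cycle and gluconeogenesis, 19 were lower and 2 higher with a median log2 fold change of -3.19. Their share of TPM, 2.53% in the control, was 0.268% ± 0.0994 in condition 4. It was 2.45% ± 0.368 with 1 µg/mL and 1.83% ± 0.764 with 2 µg/mL, where replicates 1 and 2 lay at 1.17% and 1.65% and replicate 3 at 2.67%. ICL1 had 86.9, 48.4 and 27.9 TPM in condition 4, a log2 fold change of -5.65 ± 0.474 (SE, edgeR adjusted p = 2.89e-05).

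The high stress genes of the control did not move as 1 group. SIP18 fell to 4512, 1839 and 368 TPM (log2 fold change -2.99 ± 0.601, edgeR adjusted p = 0.00316) and GRE1 to 3053, 1711 and 365 TPM (-2.51 ± 0.533, adjusted p = 0.00406). HSP12 had 18814, 18853 and 21086 TPM in condition 4, within the range of the controls (0.332 ± 0.412, adjusted p = 0.537), and DDR2 had 6720, 5273 and 3916 TPM (-0.116 ± 0.253, adjusted p = 0.731). Of the 52 general stress and stationary phase genes, 25 were lower and 5 higher, with a median of -0.56. The 12 ethanol-phase markers summed to 14380 to 18110 TPM in the control and to 747 to 1974 TPM in condition 4, with 11 lower. The 9 markers of growth on glucose summed to 7214 to 7520 TPM and to 14350 to 16040 TPM, with 8 higher. The 10 stationary phase markers, which include HSP12, GRE1, SPG4 and HSP26, summed to 35320 to 46130 TPM and to 23300 to 27190 TPM, with 4 lower. Over all genes tested, 23.0% were lower and 19.3% higher. The classes and marker lists were chosen with earlier results of these data known, so counts of their members can be partly fixed by that choice. ICL1, SIP18, GRE1, HSP12 and DDR2 were named for their high levels in these same control samples. That selection can favour a lower value in condition 4, and their p-values do not account for it.

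Ribosomal protein genes held 18.7% ± 5.87 of TPM in condition 4, and 123 of 137 were higher with a median log2 fold change of 1.05. Replicate 3 of condition 4 lay at 25.4%, apart from the others at 14.2% and 16.6%. The count was 52 without that library, 55 without control replicate 3 and 72 without control replicate 2. Cell wall genes held 7.24% ± 1.47, and 31 of 52 were higher and 6 lower. In the tricarboxylic acid cycle 15 of 21 genes were lower (7 without control replicate 2). In fatty acid oxidation and the carnitine shuttle 15 of 21 were lower.

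**Figure D4:**
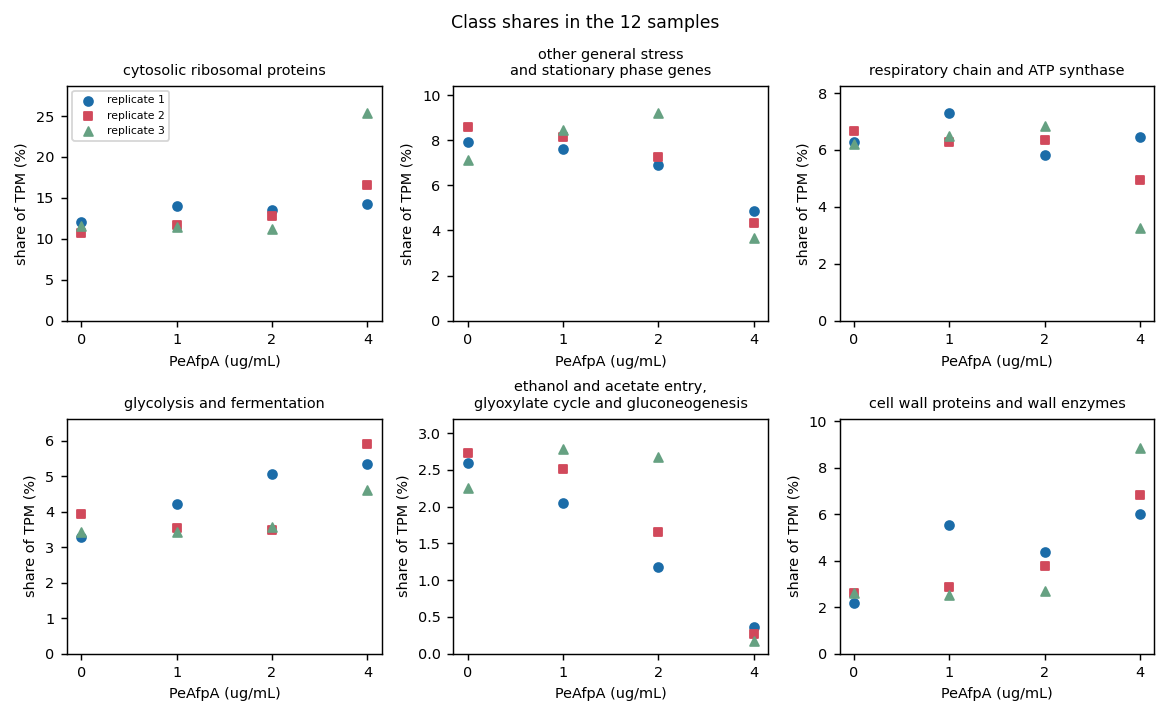
Share of TPM of 6 functional classes in each of the 12 samples by PeAfpA concentration, with 1 symbol per replicate number. The 3 untreated samples lie close together in each panel, and the ethanol and acetate class lies between 2.26% and 2.73% without PeAfpA and at 0.366% or less with 4 µg/mL.

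Which paralogue dominated also differed between the conditions. In limma's test of 461 pair ratios over the 12 samples, 205 (44.5%) differed between condition 4 and the control, 85 toward the copy that led in the control and 120 toward its partner. The order of the copies turned in 68 of them, 22 of which had a lead of at least 2-fold in the control. Pairs were oriented to the copy that led in the control, so an order could turn only toward the partner. The split of 85 and 120 is thus partly set by that orientation, and no conclusion is drawn from it. Of the 58 ribosomal protein pairs, 10 differed (17.2%) and 1 turned its order.

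ADH2, at 12.1 TPM in condition 4, stood below ADH1 at 3018 TPM, and the log2 ratio was lower than in the control by 8.94 ± 0.607 (log2 difference -8.94, limma adjusted p = 1.3e-05). GDH3 (70.5 TPM) stood below GDH1 (1409 TPM), a difference of -6.07 ± 0.692. CIT2 (123 TPM) stood below CIT1 (439 TPM), a difference of -1.83 ± 0.184. MLS1 and DAL7 (-7.22 ± 0.924), RGI2 and RGI1 (-6.07 ± 0.841), ACS1 and ACS2 (-4.57 ± 0.595), GND2 and GND1 (-2.79 ± 0.397) and SSA3 and SSA4 (-2.97 ± 0.552) turned as well, each with a limma adjusted p of at most 0.00219. The largest such difference among pairs with a 2-fold lead in the control was that of the fatty acid transport protein FAT3 and INA1 (-8.32 ± 0.703). In contrast, the ratio of TDH3 to TDH2 had a difference of -0.611 ± 0.347 (adjusted p = 0.175), that of PDC1 to PDC5 0.765 ± 0.333 (0.0867) and that of ENO1 to ENO2 0.093 ± 0.302 (0.824).

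**Figure D5:**
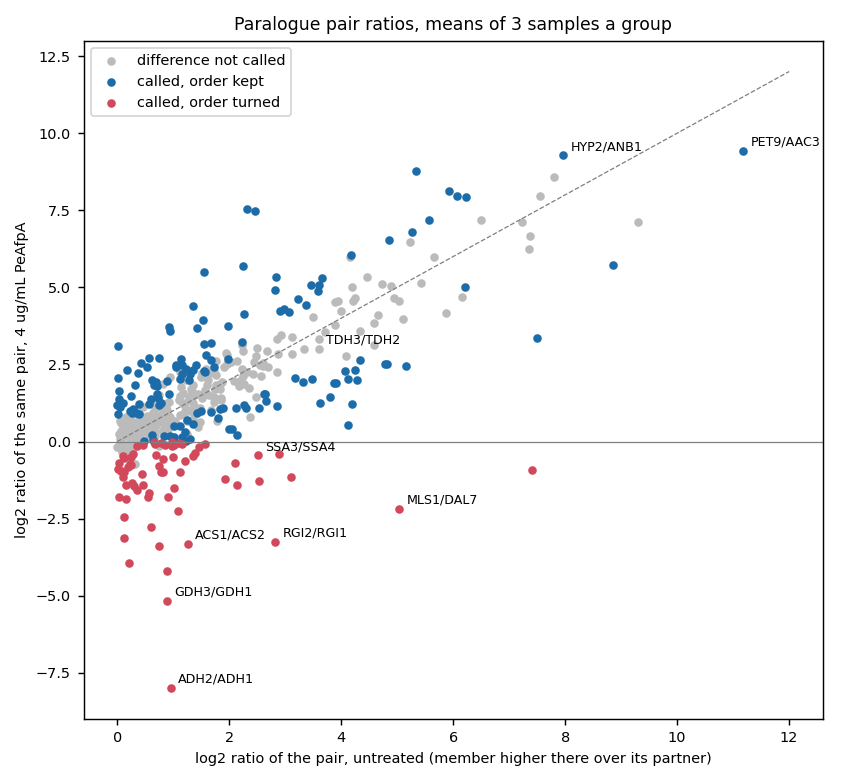
Log2 ratio of each of 461 paralogue pairs in the untreated culture against the ratio of the same pair with 4 µg/mL PeAfpA, as means of 3 samples; pairs are oriented to the copy that led in the control. The 68 pairs below the horizontal line in red had a called difference and the other copy ahead in condition 4, with ADH2/ADH1 lowest at -7.98.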

How the data were processed

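RNA of 12 cultures was sequenced from polyadenylated RNA libraries (TruSeq RNA v2, single-end reads). The authors trimmed the reads with Trimmomatic 0.39, mapped them with Bowtie2 2.3.2 to the S288C R64 genome and counted them per gene with HTSeq 0.9.0. The deposited values are raw counts of 6600 features, without normalization. How the counting treated strand, overlapping genes and multiply mapped reads is not given in the sources used here, so genes that share sequence or overlap may have lost or shared reads. All count columns belong to labelled samples, and groups were taken from the labels. Whether the 3 flasks of a condition were started from separate precultures is not stated here, so p-values measure the spread between these flasks.

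TPM was computed from coding lengths of the RefSeq R64 annotation for 5917 matched features. The other 683 were left out of TPM but not of library totals. No protein table was used; proteins were translated from the coding sequences, and paralogue pairs were reciprocal best hits of blastp (blast 2.17.0) with at least 40% identity over at least 70% of the longer protein, which gave 494 pairs. Pairs with a mean of at least 10 counts in the larger member were tested with limma 3.58.1 on log2 ratios with 0.5 added to each count, called at an adjusted p under 0.05, and called dominant from 2-fold. Genes were tested from a mean level of 1 TPM in the 12 samples (1 CPM for features without a length) with edgeR 4.0.16 (TMM factors, R 4.3.3). Both were tested on simulated data. The classes, families and marker lists were chosen with earlier results of these data known. Named are the 30 highest genes by TPM and 10 by CPM, the 3 highest of most classes, the leading members of the families, the 10 dominant pairs with the largest ratio among the 500 highest genes, and the 10 highest genes without a class. Pairs that turned their order, the genes of the promoter windows and the genes compared with condition 4 were chosen after their values were seen. Intervals of 0 counts assume 3 counts and cover counting error only. Alternatives were CPM, other lengths, filters, pseudocounts and scalings, DESeq2 1.42.0, a replicate block and each library left out in turn. Coding length plus 74 bases and all 237 pairs within the listed families were added after seeing the data. Figures were drawn with matplotlib 3.10.9. The values of 1 ribosomal protein pair are not reported here.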

Additional observations from a re-analysis of the deposited data

Results flagged for a closer look

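Features outside the reference annotation were not used for TPM, and they held up to 0.323% of the counts of a control library, in replicate 1. The highest of them in the control, YDR133C, had 5447, 2991 and 3347 counts, a mean of 3928. These features were counted by the authors under the same settings as the others, and what their reads come from was not tested.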

How the results depend on the processing

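Shares depend on whether length is taken into account. By counts (CPM), the share of cytosolic ribosomal proteins was 5.461%, of general stress and stationary phase genes 4.45%, of the respiratory chain and ATP synthase 3.684%, of glycolysis and fermentation 4.567% and of ethanol and acetate entry, the glyoxylate cycle and gluconeogenesis 4.042%, while 541 genes held 50%, the 10 highest 6.247% and the 100 highest 25.08%. Ribosomal proteins held 12.28% with the uniquely mappable length and 10.73% with 74 bases added, and the respiratory chain 6.001% with 74 bases added. Pairs that differed numbered 339 to 382 under the other planned settings, dominant pairs 231 to 256, and 344 to 364 and 247 to 250 with a control left out. Length settings changed the call of at most 8 pairs. Within the listed families 205 pairs differed, out of 237 tested, and the calls of ENO1 over ENO2 and of SSB2 over SSB1 were lost. For condition 4 against the control, genes called ranged from 1491 to 2465 with 1 library left out (2497 with all), lowest without replicate 3 of condition 4 and then without control replicate 3 (1657). Higher genes ranged from 664 to 1140 and lower genes from 827 to 1325 in those fits. Library size alone called 756 higher and 1571 lower genes, RLE size factors 1242 and 1241, and DESeq2, with 2706 genes in all, 1363 and 1343, so the excess of lower genes depends on the scaling. Pair ratios that differed ranged from 149 to 202 with a library left out (205 with all). Between the control and condition 4, deviations of samples with the same replicate number correlated at 0.154, 0.161 and 0.02. Samples with different numbers had correlations from -0.17 to 0.022. Whether samples of the same number were handled together is not given by the labels and was not tested. With the replicate block 2217 genes and 187 pair ratios were called. Each group has 3 samples, which limits the pair tests to large or steady ratios, and genes under 300 bases carry the least certain TPM because reads overlap them only in part.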

Other observations

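The 3 control cultures were not equal in every gene. Of 1814 genes at 100 TPM or more, 204 differed by at least 1.5-fold and 32 by at least 2-fold between the highest and the lowest control sample. Of the 15 most variable, 12 were highest in replicate 1. PHO89, a sodium-phosphate symporter of phosphate shortage, had 1029, 475 and 298 TPM. SUR2, a hydroxylase of sphingolipid synthesis, had 396, 93.5 and 151 TPM, and DBP2, an RNA helicase of ribosome biogenesis, had 315, 104 and 137 TPM. Replicate 1 also had the lowest TPM of TSL1, a subunit of the trehalose synthase complex (99.5, 166 and 243 TPM), and of PGM2, the main phosphoglucomutase (132, 190 and 250 TPM). These genes were chosen after their values were seen, and no test was run on them because the samples are 1 group.

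Genes of meiosis and sporulation, 10 in the list, summed to 76.0 to 102 TPM in the control, and the 5 flocculation and filamentous growth genes to 36.6 to 45.9 TPM, with FLO11, a wall protein of filamentous growth, at a mean of 5.96 TPM.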
